A study of Mus musculus and Homo sapiens
Mus musculus with 12 samples.

Results

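Among nuclei of whole mouse brain, 368 of 11198 (3.29%) were selected as excitatory neurons with many transcripts of Rspo2, Col23a1, Ptpn14 and Lypd1. Their working name was Rspo2 and Col23a1 excitatory neurons. The nuclei were chosen on measured values: the 4 genes together held at least 6 of every 10000 UFIs of the nucleus, Slc17a7 had at least 1 UFI, Gad1 and Gad2 together held under 1, Hs3st4 under 8 and Lrp2 under 5 per 10000. A UFI, or unique fragment identifier, counts a cDNA fragment once however often it was amplified. The selected nuclei were 7.82% of the 4704 nuclei that met the same conditions on Slc17a7, Gad1, Gad2 and Lrp2, and the remaining 4336 of these are called other Slc17a7 nuclei. Clustering divided the selected nuclei into 8 subclusters with different leading genes, a description with no test, and the nuclei are therefore called by the rule and not as 1 cell type.

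Slc17a7 encodes the vesicular glutamate transporter VGLUT1, which fills synaptic vesicles with glutamate in most excitatory neurons of the cortex, hippocampus and basolateral amygdala. Rspo2 encodes R-spondin 2, a secreted protein that strengthens Wnt signalling by removing the ligases that degrade Wnt receptors. Col23a1 encodes a collagen anchored in the plasma membrane, Ptpn14 a phosphatase that restrains the growth regulator YAP1, and Lypd1 a membrane-bound protein of the Ly6 family that dampens nicotinic acetylcholine receptors. Excitatory neurons of the forebrain fall into many types by cortical layer, projection target and region, and such genes often mark some types and not others.

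The nuclei came from wild-type C57BL/6J mice and were profiled by snHH-seq, a droplet method that primes total RNA of single nuclei at random positions. The 7 libraries analysed here were frozen brain without a preindex (replicates 1 and 2), frozen brain with a preindex (replicates 1 and 2), fresh brain without a preindex (replicates 1 and 2) and fresh brain with a preindex (replicate 1). A preindex is a short barcode in the reverse transcription primer that marks the nucleus before it enters a droplet. No library carried a treatment or an altered allele, and nothing in the labels says that replicates came from separate animals, so p-values measure the spread between libraries, which may be technical. In 4 libraries the treatment field gave the primer opposite to the one in the title. The titles were used, and the barcodes of the libraries titled as preindexed were 40 bases long against 30 in the others.

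Library totals lay between 8605214 and 42439731 UFIs, and the selected nuclei of a library added up to between 270339 and 1352987 UFIs. The selected nuclei had a median of 15420.5 UFIs and 3777 genes, and the other Slc17a7 nuclei 15224 UFIs and 3722 genes. Of the 11198 barcodes, 32 sequences occurred in more than 1 library, and 2 of these belonged to a selected nucleus, in neither case to 2 selected nuclei. Replicate 1 of the frozen libraries without a preindex stood apart. It held 21 selected nuclei, the fewest, and its summed profile correlated with the other libraries at 0.885 to 0.902, where all other pairs reached at least 0.930. The number of calls between primers without it is given below.

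The selection drew a line through a continuous range of values. The lowest selected nucleus held 6.02 UFIs of the 4 genes per 10000 and the highest one left out 5.995. Between 6 and 7 per 10000 lay 88 selected nuclei, and 114 nuclei that met the other conditions lay between 5 and 6. The limit on Hs3st4, a gene of layer 6 corticothalamic neurons, removed 143 nuclei. A selected nucleus held a median of 14 UFIs of the 4 genes, and the lowest held 3. When every nucleus was reduced at random to 3000 UFIs, the same conditions chose 226 nuclei, and only 114 of these were among the 368. Membership of a single nucleus was therefore a matter of few UFIs, whereas the values below are sums over nuclei.

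The nuclei differed in which of the 4 genes they carried. All 4 were seen in 49 selected nuclei, 3 of them in 114, 2 of them in 141 and a single one in 64. In 297 nuclei more than 50% of the UFIs of the 4 genes came from 1 gene. This gene was Rspo2 in 107 nuclei, Col23a1 in 106, Lypd1 in 67 and Ptpn14 in 17. The most frequent combination was Rspo2 with Col23a1 and neither of the others, in 52 nuclei, followed by all 4 genes and by Col23a1 with Ptpn14 and Lypd1 in 45. Across the 368 nuclei, levels of Ptpn14 and Lypd1 ranked together (Spearman's rank correlation 0.32), whereas Rspo2 and Lypd1 ranked apart (-0.45). These are correlations across nuclei, and the rule on the sum of the 4 genes pushes every pair toward negative values, so nothing is read from them or from the counts above.

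At least 1 UFI of Rspo2 was found in 59.5% of the selected nuclei, of Col23a1 in 69.3%, of Ptpn14 in 53.3% and of Lypd1 in 58.2%. In the other Slc17a7 nuclei the shares were 27.3%, 18.9%, 16.0% and 25.9% at nearly the same median depth. In 144 nuclei rich in oligodendrocyte transcripts, a cell type that should lack neuronal transcripts, they were 4.86%, 4.86%, 19.4% and 9.03% at a median of 10391 UFIs. For Ptpn14 the share in other Slc17a7 nuclei was thus no higher than in oligodendrocyte-rich nuclei. Ptpn14 made up 37.8 of every 1000000 UFIs in oligodendrocyte-rich nuclei and 20.1 in other Slc17a7 nuclei. The oligodendrocyte-rich nuclei therefore give no background level for this gene. Per kilobase of gene span, Lypd1 was the most abundant of the 4 in the selected nuclei with 4.26 CPM (UFIs of the gene per 1000000 UFIs), then Rspo2 with 2.27, Col23a1 with 1.17 and Ptpn14 with 0.712, all below Slc17a7 with 15.2.

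In the mouse genome build GRCm38, Rspo2 (ENSMUSG00000051920) lies on the minus strand at chr15:43020794-43170826. Col23a1 (ENSMUSG00000063564) lies on the plus strand at chr11:51289920-51583918. Ptpn14 (ENSMUSG00000026604, plus strand) and Lypd1 (ENSMUSG00000026344, minus strand) share a chromosome, at chr1:189728268-189876695 and chr1:125867622-125913101. Reads were counted over the whole gene, introns included, so that a long gene collects more UFIs per transcript than a short one.

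The selected nuclei were clustered with the components, neighbours and resolution of the study's methods, but on 2000 variable genes and without their Harmony correction for the library, which gave 8 subclusters of 107, 57, 47, 58, 19, 36, 24 and 20 nuclei. A cluster against the rest is a description here, with no test. Subclusters 1 to 6 had nuclei from 7 libraries, and subclusters 7 and 8 from 6 each. With the 4 selecting genes left out of the clustering the number was again 8, and the adjusted Rand index between the partitions was 0.775. The index was 0.531 with 20 components (8 subclusters), 0.660 at a Leiden resolution of 0.8 (11 subclusters) and 0.387 at 0.2 (5 subclusters), so the borders of the subclusters varied with the settings. Subclusters 1, 2 and 8 had each of the 4 genes in at least 30% of their nuclei, with Rspo2 the least frequent (42.1%, 47.4% and 30%). Subclusters 4 and 5 had little Ptpn14 and subcluster 7 little Rspo2.

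**Figure D1:**
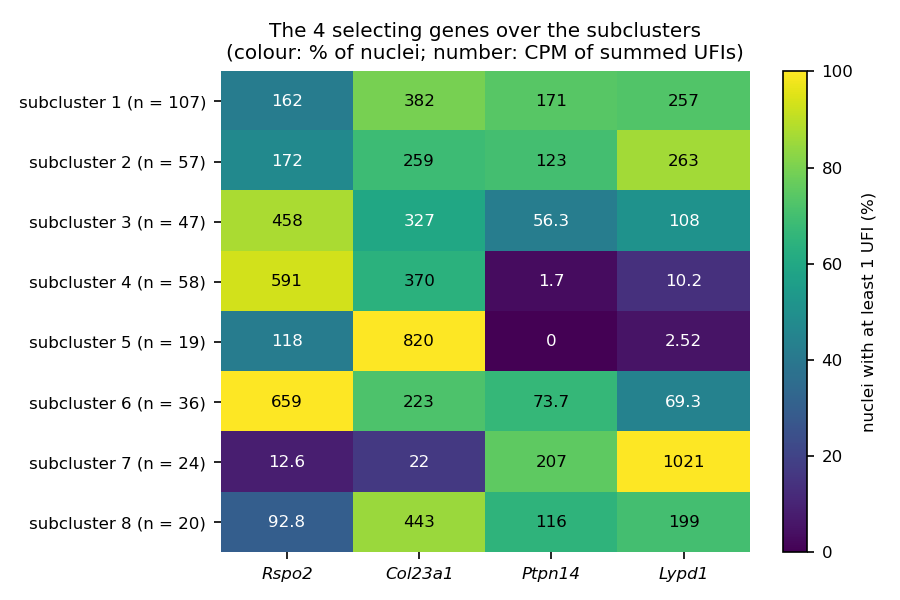
Each row is a subcluster of the selected nuclei and each column 1 of the 4 selecting genes; colour gives the share of nuclei with at least 1 UFI in percent, and the printed number the CPM of the summed UFIs. Subcluster 4 carried Rspo2 and Col23a1 with almost no Ptpn14, subcluster 7 carried Ptpn14 and Lypd1, and subcluster 6 was led by Rspo2.

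Subcluster 1, the largest with 107 nuclei, combined Col23a1 (79.4% of nuclei), Ptpn14 (73.8%) and Lypd1 (72.9%). Its leading genes were Dach1, a transcriptional repressor, at 315 CPM against 39.8 in the remaining selected nuclei, Smoc1, which encodes a secreted BMP antagonist, at 98.2 against 16.8, the potassium channel subunit gene Kcnmb2 and the metalloprotease gene Adamts9. Slc1a3, a glutamate transporter gene of the astrocyte list, was among its 10 leading genes, at 57.7 CPM against 13.7. The lists of basolateral amygdala (454.7 CPM summed, against 289.1 in all Slc17a7 nuclei; 6 of 9 genes detected, Otof and Adamts2 at least 2-fold higher) and of hippocampal CA2 (101.9 against 49.1, Ntf3 at least 2-fold higher) stood highest among the neuronal lists. A list gene counted as detected in a subcluster when at least 10% of its nuclei had a UFI. The endothelial list had the highest mean ratio of all lists there, at 36.3 CPM against 21.1, with none of its genes detected. No list was raised over most of its genes, and the subcluster was given no name.

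Subcluster 2, with 57 nuclei, was cortical layer 2/3 IT-like (IT, intratelencephalic, for neurons that project within the forebrain). All 5 genes of that list were detected, and Cux2, Rasgrf2, Stard8 and Otof were at least 2-fold above all Slc17a7 nuclei. Stard8 led the subcluster with 91.7 CPM against 5.93 in the remaining selected nuclei, followed by the adhesion gene Nectin3 (488 against 70.6), the collagen gene Col19a1 (207 against 34.4) and the heparan sulfate proteoglycan gene Gpc6 (2289 against 481). Cux2, a transcription factor of upper layers, had a UFI in 93.0% of its nuclei. Stard8 was the 1 gene of the layer 2/3 list among the 10 leading genes, and Nectin3, of the CA3 list, was there too. The CA3 list stood at 993.7 CPM against 557.8, with Nectin3 alone at least 2-fold higher, and Glis3 of the dentate granule list was also at least 2-fold higher. The microglia list stood at 76.6 CPM here against 21.8 in all Slc17a7 nuclei, with none of its genes detected in 10% of nuclei.

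Subcluster 5, with 19 nuclei, was cortical layer 6 IT-like. Adamts2, Osr1, Oprk1 and Sulf1, the 4 of 8 genes of that list that were detected, were all at least 2-fold higher, and the list summed to 921 CPM against 138.1 in all Slc17a7 nuclei. Col23a1 had a UFI in all 19 of these nuclei (820 CPM), Ptpn14 in none and Lypd1 in 5.26%. Its leading genes were Spag16, a gene of the ciliary axoneme (425 CPM against 9.23), Lcp1, an actin-bundling protein (279 against 7.23), and the neuropeptide receptor genes Tacr1 (138 against 8.15) and Npsr1 (732 against 74.5). The list of striatal medium spiny neurons ranked next in this subcluster, with 641.7 CPM against 259.3, 6 of 7 genes detected and Drd1, Drd2 and Meis2 at least 2-fold higher. In the claustrum list, which ranked after it, Nr4a2, Gnb4 and Ntng2 were at least 2-fold higher. A count of 0 of 19 nuclei allows a share of up to 15.8% with a UFI of Ptpn14.

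Subcluster 4, with 58 nuclei, carried Rspo2 in 93.1% and Col23a1 in 63.8% of its nuclei, but Ptpn14 in 3.45% and Lypd1 in 13.8%. Its leading genes included the GTPase regulator gene Dlc1 (457 CPM against 86.7), the axon guidance gene Sema3e (282 against 54.5), the zinc finger gene Zfp804b (1414 against 290.7) and Scube1 (211 against 43.3). The layer 6 IT list ranked highest, with 288.9 CPM against 138.1 and with Osr1 and Sulf1 at least 2-fold higher. None of its genes was among the leading 10, and no name was given.

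Subcluster 6, with 36 nuclei, had Rspo2 in all nuclei (659 CPM). It was led by the phospholipase gene Plch1, the neuropeptide receptor gene Qrfpr, the transcription factor gene Trps1 (2011 CPM against 269.8), the synaptic organiser gene Cbln4 (35.4 against 0.965) and the angiopoietin gene Angpt1 (367 against 55.6). The list of cortical layer 5/6 near-projecting neurons ranked highest at 1203 CPM against 406, with Tshz2, Vwc2l and Trhr at least 2-fold higher. Subcluster 7, with 24 nuclei, was its counterpart in the selecting genes: Lypd1 was in all nuclei at 1021 CPM, Ptpn14 in 75%, and Rspo2 in 8.33%. It was led by the noncoding RNAs Gm13986 (437 against 44.2) and Rmst (842 against 111), the channel gene Trpm3 (5918 against 1057) and the receptor genes Erbb4 and Htr2c. Genes of the near-projecting list (Tshz2, Trhr) and of the amygdala list (Cyp26b1, Lmo3, Otof, Nr2f2 and Grp) were both at least 2-fold higher there. The dentate mossy list ranked between these, at 370.8 CPM against 138.8, with Calcrl and Ajap1 at least 2-fold higher. In subcluster 6 the CA1 list ranked second, at 483.6 CPM against 233.8, with Wfs1 and Dcn at least 2-fold higher. Neither subcluster was named.

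In subclusters 3 and 8 a list of glial genes ranked highest. Subcluster 3, with 47 nuclei and Rspo2 in 87.2%, was led by the noncoding RNAs Gm27247 (596 CPM against 19.7) and Gm2115 (170 against 3.61), the phosphodiesterase gene Pde11a and the receptor kinase gene Kit, and held the subiculum genes Fn1 and Bcl6 and the CA1 genes Fibcd1, Mpped1 and Dcn at least 2-fold above all Slc17a7 nuclei. Its oligodendrocyte list stood at 731.3 CPM against 274.7, with St18 among the 10 leading genes. All 6 selected nuclei with at least 20 oligodendrocyte UFIs per 10000 were in it. Subcluster 8, with 20 nuclei, was led by Tmem132c, Tspan18 (245 against 5.53), Prox1 (222 against 4.61), Sox6 and Nxph1, and held the hippocampal gene Zbtb20 in all nuclei (2854 against 211) and the mossy cell gene Calb2 in 45.0%. Zbtb20 was the only 1 of the 3 genes of the shared hippocampal list that was detected or at least 2-fold higher. The mean log2 ratio of that list was 0.106. The list of oligodendrocyte precursor genes ranked highest there (2336 CPM against 856.2), before those of dentate mossy and granule cells, and all 3 selected nuclei with at least 5 UFIs per 10000 of the precursor genes other than Tnr, which neurons also express, were in it. Doublets were not removed, and their part in these subclusters was not tested.

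Against other Slc17a7 nuclei, the selected nuclei had pallial transcripts at a like summed level and were poorer in subcortical and corticothalamic transcripts. The list of pallial glutamatergic genes summed to 1747 ± 107 CPM (SD, n = 7 libraries) against 1740 ± 112. Camk2a made up 721 CPM of the sum in the selected nuclei. Tbr1 of this list was lower in 7 of 7 libraries, and no gene of it was higher in 7 of 7. Genes of subcortical excitatory neurons (Slc17a6, Tcf7l2, Lef1, Synpo2, Shox2 and Zic1) summed to 31.6 ± 8.05 CPM against 209 ± 77.1, and were lower in 7 of 7 libraries. Those of layer 6 corticothalamic neurons summed to 98.0 ± 29.4 against 346 ± 68.0 CPM, also lower in 7 of 7. The last difference was partly built in, since the rule limits Hs3st4, which such neurons express. Nuclei with at least 8 UFIs of Hs3st4 per 10000 reached 677 CPM on that list, and nuclei rich in Rorb, a gene of layer 4 and thalamus, reached 996 CPM on the subcortical list.

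No single forebrain region stood out in the region lists. The amygdala list was higher in 7 of 7 libraries (393 ± 72.3 against 290.7 ± 28.4 CPM), but so were the lists of hippocampal CA1 (302 ± 29.0 against 227 ± 24.5), CA2 (68.5 ± 7.70 against 46.0 ± 6.96), dentate mossy cells (180 ± 24.9 against 131 ± 12.3) and cortical layer 6 IT (206 ± 56.1 against 130 ± 20.8). Few genes of these lists had at least 20 CPM. Of these, Otof and Adamts2 of 5 in the amygdala list (with Lmo3 lower), Mpped1 and Dcn of 3 in CA1, Ntf3 as the 1 such gene in CA2, Ajap1 as the 1 in the mossy cell list and Adamts2 again of 2 in layer 6 IT were higher in 7 of 7 libraries. Of all 5776 genes at this level 6.98% were higher and 8.54% lower, and the rule used this contrast, so nothing is read from the counts. Otof belongs to the layer 2/3 list too. Lists of hippocampal CA3 (434 ± 118 against 560 ± 57.5), layer 4 (103 ± 48.3 against 224.5 ± 41.4) and layer 5 IT (82.3 ± 32.4 against 136 ± 24.8) were lower in 7 of 7. Zbtb20, which marks hippocampal neurons, had 382 ± 140 CPM in the selected and 629 ± 80.8 in other Slc17a7 nuclei, and in nuclei rich in Glis3 and Prox1 the list it leads reached 3030 CPM. As a group the selected nuclei could therefore be called neither hippocampal nor amygdalar.

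**Figure D2:**
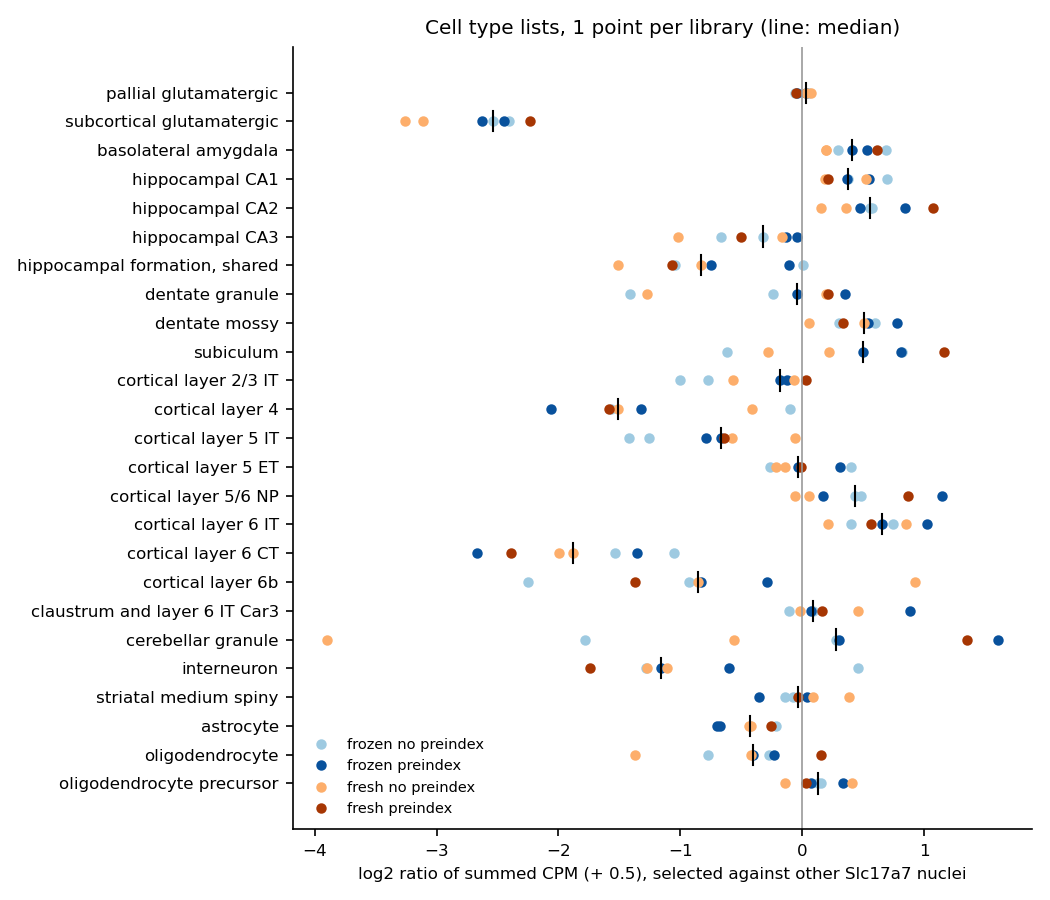
Each row is a fixed list of cell type genes, and each point the log2 ratio of its summed CPM (plus 0.5) between selected and other Slc17a7 nuclei in 1 library, coloured by storage and primer, with a line at the median. The subcortical and layer 6 corticothalamic lists lay below 0 in all 7 libraries, the pallial list lay at 0, and lists of several regions lay above 0.

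Lists of other cell types were at low or shared levels. The oligodendrocyte list stood at 197 ± 49.4 CPM against 274.5 ± 67.5 in other Slc17a7 nuclei, with Mbp as its most abundant gene (101.5 CPM), and the astrocyte list at 265 ± 64.6 against 361 ± 82.0. The interneuron list stood at 226 ± 148 against 388 ± 62.1 CPM, nearly all of it Adarb2 (222 CPM). Microglial (16.5 CPM), endothelial (20.4), pericyte (6.93), kidney (11.3) and liver (0.804) lists were near the floor, and the liver genes Alb and Cyp2e1 were at 0. The precursor list was high in both groups (933 ± 128 against 841 ± 76.4 CPM) through Tnr (913 CPM), which neurons also express.

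Of 5776 genes with at least 20 CPM in the higher group, the genes of the rule left out, 403 (6.98%) were higher in the selected nuclei in 7 of 7 libraries and 493 (8.54%) were lower. The rule used this contrast, so the counts are given as a description. Cdh13, which encodes T-cadherin, an adhesion protein that guides axons, was the most abundant of the 20 genes with the largest ratio among genes that the rule did not use. Its levels in the selected nuclei were 847 and 1241 CPM in frozen libraries without a preindex, 2101 and 1825 in frozen libraries with one, 1468 and 2238 in fresh libraries without one, and 2046 in the fresh library with one. All 7 were above the 523 to 676 CPM of other Slc17a7 nuclei, and the ratio of the means (1681 ± 512 against 619 ± 55.7) was 1.44 on the log2 scale.

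Of the other genes among the 20, several encode receptors or channels. Trhr, the receptor of thyrotropin-releasing hormone, stood at 30.9 ± 7.19 against 6.09 ± 0.789 CPM, with 19.5 to 37.8 CPM over libraries and a UFI in 23.1% of the selected nuclei. Npsr1, the neuropeptide S receptor, had 110 ± 52.3 against 26.1 ± 12.3 CPM, but came from 52 nuclei, with 24.9% of its UFIs in 3 of them. The chloride channel gene Ano2 (56.7 ± 26.5 against 12.1 ± 2.20 CPM), the glycine receptor subunit gene Glra3 (48.5 ± 9.22 against 19.2 ± 3.68), the neurotensin receptor gene Ntsr1 (24.98 ± 7.80 against 9.74 ± 2.75) and the anion exchanger gene Slc26a4 (40.7 ± 7.70 against 14.9 ± 2.62) were on the same side in 7 of 7 libraries. Ntsr1 is best known from corticothalamic neurons, whose other genes were low here.

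The proteoglycan gene Dcn stood at 20.3 ± 18.4 CPM against 3.38 ± 1.74, the BMP family gene Bmp3 at 39.9 ± 13.05 against 16.4 ± 1.75, the angiopoietin gene Angpt1 at 77.0 ± 38.6 against 33.5 ± 7.10 and the sulfotransferase gene Chst9 at 149 ± 50.8 against 48.1 ± 8.52. Dcn varied most of the 20 relative to its mean, between 1.89 and 43.2 CPM. The kinase gene Nek10 was among the steadiest, at 95.9 ± 15.6 against 26.7 ± 3.65 CPM with a UFI in 52.7% of the selected nuclei. Otof (59.7 ± 23.7 against 18.1 ± 1.38), Hpcal1, Plce1, Amz1 and the noncoding RNAs or unnamed genes Gm13986, B130024G19Rik, Gm11639 and 6530403H02Rik completed the 20.

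Among the 10 genes with the smallest ratio, again without those of the rule, were transcription factors of other excitatory neurons. Hs3st4, which the rule limits, was left out for that reason (126 against 1287 CPM). Tcf7l2, a Wnt effector high in thalamus, had 6.46 ± 5.06 CPM in the selected nuclei, with 2.22 CPM in the lowest and 15.1 in the highest library, against 71.1 ± 29.3 CPM and a minimum of 26.7 in other Slc17a7 nuclei. Lef1, its relative, had 6.81 ± 8.61 against 41.4 ± 16.2, and Foxp2, a factor of layer 6 corticothalamic neurons, 13.2 ± 5.95 against 117 ± 31.3. The groups did not overlap for Tcf7l2 and Foxp2, and did for Lef1. The actin-associated gene Synpo2 (5.30 ± 2.60 against 51.5 ± 17.3 CPM), the potassium channel gene Kcnh5 (48.3 ± 23.9 against 250.5 ± 52.5), Plekhg1 and the synaptotagmin gene Syt6 (6.42 ± 4.21 against 29.1 ± 8.75) were lower in 7 of 7 libraries as well.

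**Figure D3:**
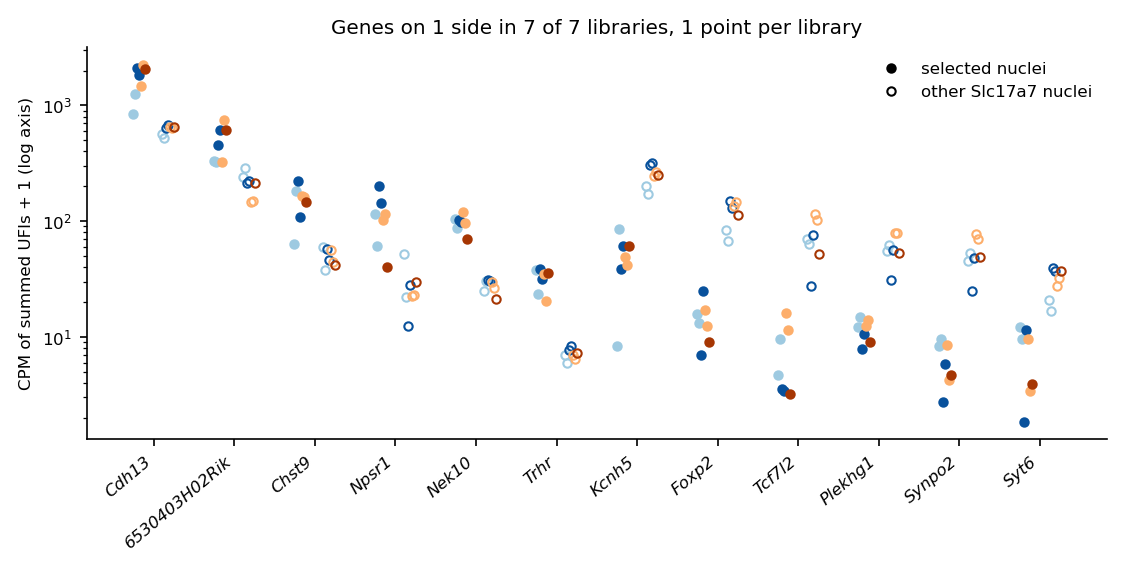
CPM of summed UFIs plus 1 on a log axis for 12 genes, 1 point per library, filled for selected and open for other Slc17a7 nuclei; light and dark blue are frozen libraries without and with a preindex, light and dark orange fresh ones. Cdh13, Chst9, Nek10 and Trhr lay higher and Foxp2, Tcf7l2, Plekhg1 and Synpo2 lower in the selected nuclei.

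R-spondins and Wnt proteins are secreted ligands, and Rspo2, on which the nuclei were selected, made up 341 of the 438 CPM of their list. In other Slc17a7 nuclei it was 54.5 of 148 CPM. In the selected nuclei Rspo2 stood at 670 and 228 CPM in frozen libraries without a preindex, 285 and 273 in frozen libraries with one, 322 and 257 in fresh libraries without one and 350 in the fresh library with one. The value of 670 was due to 181 UFIs, of which 84 came from 1 nucleus. Of the other R-spondins, Rspo3 had 38.4 ± 9.66 against 28.7 ± 4.45 CPM and was higher in 5 of 7 libraries, Rspo1 had 0.717 ± 0.591 against 4.20 ± 1.18 and was lower in 7 of 7, and Rspo4 had no UFI in the selected nuclei, which allows up to 0.435 CPM. Most Wnt genes were near the floor, the highest being Wnt7b (14.6 ± 7.44 against 9.17 ± 0.981 CPM), Wnt9a (13.6 ± 2.83 against 17.7 ± 3.62) and Wnt4 (13.3 ± 4.24 against 8.27 ± 1.47).

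The list of R-spondin and Wnt receptors summed to 476 ± 44.2 against 426 ± 41.8 CPM and was higher in 7 of 7 libraries. Lgr4, a receptor that binds R-spondins, had 77.7 ± 16.5 against 67.0 ± 5.73 CPM, and the Wnt co-receptor gene Lrp6 had 114 ± 16.4 against 111.5 ± 8.30. Znrf3, the ligase that R-spondins remove, had 128 ± 15.4 against 113 ± 13.4 CPM, and the destruction complex gene Apc 432 ± 25.7 against 411.5 ± 11.2. None of the 5 receptor genes and none of the 7 genes of inhibitors and ligases with at least 20 CPM was on 1 side in 7 of 7 libraries. Of the 5 nuclear effectors with such levels, Tcf7l2 and Lef1 were lower, where 6.98% of all genes were higher and 8.54% lower. Ctnnb1, which encodes beta-catenin, had 85.7 ± 13.7 against 75.8 ± 7.75 CPM.

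Beside Ptpn14, 3 further genes of the Hippo pathway were higher in 7 of 7 libraries. They were Yap1, the coactivator that Ptpn14 restrains (36.9 ± 15.01 against 19.6 ± 3.65 CPM), the kinase gene Stk3 (152 ± 27.5 against 121 ± 10.5) and the scaffold gene Wwc2 (82.6 ± 6.86 against 65.6 ± 5.61). Amotl1, an angiomotin that holds YAP1 in the cytoplasm, was lower (8.48 ± 4.29 against 26.1 ± 8.01). Of the 11 genes of the list with at least 20 CPM other than Ptpn14, whose level the rule fixed, 3 were thus higher and 1 lower, where 6.98% and 8.54% of all genes were. Among relatives and targets of Lypd1, Lynx1, a further Ly6 brake of nicotinic receptors, had 15.03 ± 8.80 against 37.4 ± 12.95 CPM, and the nicotinic receptor subunit gene Chrna4 16.2 ± 6.68 against 28.9 ± 8.64, both lower in 7 of 7. Chrna7 had 97.7 ± 37.7 against 102 ± 6.21 CPM, and Col25a1, a relative of Col23a1, 147 ± 47.7 against 140.0 ± 21.7.

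Of 13 ionotropic glutamate receptor genes with at least 20 CPM, Gria1 (2038 ± 338 against 1490 ± 150 CPM), Grin2b (3161 ± 377 against 2772 ± 304), Grin3a (105 ± 23.1 against 55.3 ± 7.76), Grik2 and Grik5 were higher in 7 of 7 libraries, and Grin1 and Grik4 lower, which was 5 higher and 2 lower of 13. Of 6 metabotropic ones, Grm5 was higher (1869 ± 239 against 1483 ± 129) and Grm3 lower (244 ± 69.9 against 397 ± 82.4). Of all 5776 genes at this level, 6.98% were higher and 8.54% lower in 7 of 7 libraries. Immediate early genes, which follow recent activity, had Egr1 lower in 7 of 7 libraries (13.2 ± 3.47 against 27.3 ± 8.07 CPM) and summed to 84.9 ± 42.4 against 105 ± 27.4.

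Storage and primer were the conditions of the study. The selected nuclei were 3.00% and 3.63% of all nuclei in frozen libraries without a preindex, 3.48% and 3.35% in frozen libraries with one, 3.50% and 2.54% in fresh libraries without one, and 3.32% in the fresh library with one. The groups overlapped. The mean share was 3.36% ± 0.267 in 4 frozen and 3.12% ± 0.512 in 3 fresh libraries (difference 0.244 percentage points, two-sided exact permutation test over 35 splits, p = 0.457), and 3.38% ± 0.0824 with against 3.17% ± 0.498 without a preindex (difference 0.219, exact p = 0.571). The smallest p that 35 splits allow is 0.0286. Neither difference in the share of all nuclei had a fixed direction: both turned when nuclei were thinned to 3000 UFIs, and that between frozen and fresh also without fresh replicate 2 made without a preindex (-0.0471). As a share of Slc17a7 nuclei the selected ones were 9.21% ± 1.30 with and 6.52% ± 1.61 without a preindex (difference 2.69 points, exact permutation p = 0.0857), and 8.63% ± 1.69 in frozen and 6.39% ± 1.79 in fresh libraries (difference 2.24, exact p = 0.143). Both differences kept their sign within each level of the other factor. A condition of at least 1 UFI can be met more often in deeper libraries. Slc17a7 nuclei were 539 of 1000 and 726 of 1300 in fresh libraries without a preindex, the deepest. They were 321 of 700 and 342 of 800 in frozen ones without a preindex. With a preindex they were 751 of 2300 and 757 of 1998 in frozen and 1268 of 3100 in fresh brain. The part of depth in these differences was not tested. Of all nuclei, within libraries of the same primer, frozen exceeded fresh by 0.293 points without and 0.0932 points with a preindex.

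The selected nuclei were deepest in fresh libraries without a preindex, with medians of 24998 and 29341 UFIs. Frozen libraries without a preindex had 11480 and 15849, frozen libraries with one 12964 and 17077, and the fresh library with one 11563. The means were 14342.5 ± 2572 UFIs in frozen and 21967 ± 9268 in fresh libraries (exact permutation p = 0.171), and the means with a preindex fell by 6549 UFIs from those without one (exact p = 0.343). The difference between frozen and fresh went from -7625 UFIs to -3938 without fresh replicate 2 made without a preindex, and to -12827 without the fresh library with one (exact permutation p = 0.0667, the smallest that 15 splits allow). That between primers was -3574 without fresh replicate 2 made without a preindex. With a minimum of 9 per 10000 the differences were -4651 and -3779. The difference between frozen and fresh changed sign with the primer. Frozen minus fresh was -13505 UFIs among libraries without a preindex and 3457.5 among those with one. Neither mean difference is therefore read as that of storage or primer alone. In each library the median of the selected nuclei was 0.969 to 1.12 times that of other Slc17a7 nuclei.

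**Figure D4:**
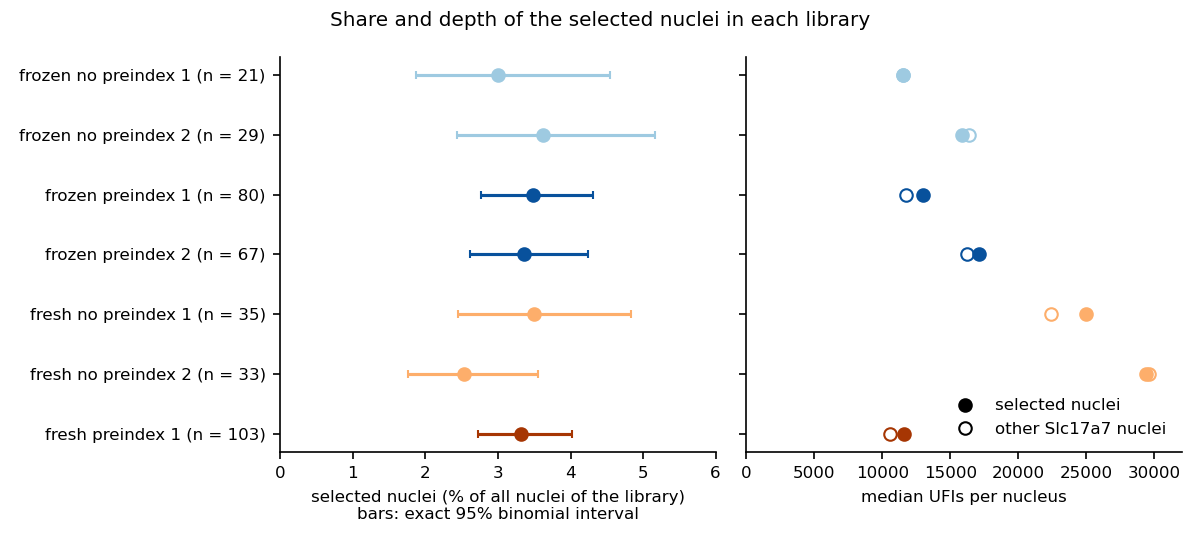
Left, the share of selected nuclei among all nuclei of each library in percent, with exact 95% binomial (Clopper-Pearson) intervals that cover counting error only; right, the median UFIs per nucleus of selected (filled) and other Slc17a7 nuclei (open). Shares lay between 2.54% and 3.63% with overlapping intervals, and depth was highest in the fresh libraries without a preindex.

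The mix of subclusters moved between libraries. Subcluster 2, the layer 2/3 IT-like nuclei, made up 17.5%, 19.4% and 18.4% of the selected nuclei in the 3 libraries with a preindex, and 4.76%, 3.45%, 17.1% and 9.09% in the 4 without one. Subcluster 3 made up 37.9% in frozen replicate 2 without a preindex, which was 11 of 29 nuclei, and 6.06% to 19.0% elsewhere. These shares rest on few nuclei and were not tested. Their part in the comparisons of summed levels between libraries was not tested either, except for subcluster 2.

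The barcodes of the preindexed libraries were compared by their last 10 bases, here called barcode ends. These matched the list of reverse transcription barcodes in the study for all nuclei of the fresh library, but for 7.61% and 7.96% in the frozen ones, where 80.6% and 81.4% matched its list of bead barcodes and 11.8% and 10.7% neither list, so that in the frozen libraries most barcode ends cannot be taken for a preindex. The selected nuclei shared barcode ends with other Slc17a7 nuclei and not with kidney-rich ones. They occupied 14 of 44 barcode ends in frozen replicate 1, 15 of 42 in frozen replicate 2 and 54 of 81 in the fresh library, where all Slc17a7 nuclei together occupied 16, 16 and 72. The barcode ends below are the one with most selected nuclei in the frozen libraries and the one with most nuclei rich in kidney transcripts in frozen replicate 1, shown because the 2 sets of nuclei did not share any. All Slc17a7 nuclei together likewise shared none with kidney-rich nuclei. All 10 bases are read from the barcodes and printed in capitals.
Barcode end with most selected nuclei: CTTCTGGTGG
Barcode end with most kidney-rich nuclei: AGATGGCTGG
CTTCTGGTGG, which is on the list of bead barcodes, marked 15 selected nuclei among 213 nuclei in frozen replicate 1 and 14 among 202 in frozen replicate 2. AGATGGCTGG, which is on neither list, marked 30 nuclei in frozen replicate 1, of which 29 held at least 10 kidney UFIs per 10000 and none was selected.

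Between frozen and fresh brain no gene was called in the selected nuclei. Of 9775 genes tested with edgeR's quasi-likelihood test on summed UFIs, 0 (0%) passed an adjusted p of 0.05, and 405 had an unadjusted p under 0.05. DESeq2 called 0 as well. The count was 15 without the fresh library with a preindex and 46 without a filter on low counts. In other Slc17a7 nuclei, with far more UFIs, 24 of 16209 genes (0.148%) were called. Mitochondrial messenger RNAs had among the smallest p-values. The complex I subunit gene mt-Nd4 had 96.2, 100.1, 88.4 and 102 CPM in the 4 frozen libraries and 51.0, 39.9 and 60.6 in the 3 fresh ones. The groups did not overlap, and the log2 difference was 0.94 (SE 0.19, edgeR adjusted p = 0.348). All 6 mitochondrial genes tested leaned toward frozen brain, with a median log2 difference of 0.91 against 0.00013 over all genes, and none was called.

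The levels of the selecting genes were used by the rule and are given with no test. The log2 difference of frozen against fresh was 0.23 (SE 0.28) for Rspo2, 0.031 (SE 0.19) for Col23a1, 0.33 (SE 0.18) for Ptpn14 and 0.32 (SE 0.17) for Lypd1. None of the Hippo genes tested other than Ptpn14 was called, and none of the 10 Wnt inhibitor, 15 ionotropic and 7 metabotropic glutamate receptor genes tested was.

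Between primers, 5 of 9775 genes (0.0512%) were called in the selected nuclei, 4 lower and 1 higher with a preindex. Rn7sk, a small nuclear RNA that restrains transcription elongation, had 1088, 1032, 883 and 902 CPM in the 4 libraries without a preindex and 397, 413 and 461 in the 3 with one. The log2 difference was -1.15 (SE 0.13, edgeR adjusted p = 0.00359), and no values overlapped. Rn7sk lies at chr9:78175303-78175633 and has many near copies in the genome, so that its uniquely mapped count is uncertain.

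Lars2, the mitochondrial leucyl-tRNA synthetase gene at chr9:123366927-123462666, fell from 3292 ± 409 to 1813 ± 94.8 CPM (log2 difference -0.83, SE 0.11, edgeR adjusted p = 0.0104). Cd44, a hyaluronan receptor gene at chr2:102811141-102901665, overlaps the annotated gene Gm23731. Cd44 had 77.7, 74.2, 86.9 and 75.6 CPM without and 33.5, 23.3 and 17.0 with a preindex (log2 difference -1.69, SE 0.24, edgeR adjusted p = 0.0191). Gm15564, an antisense transcript at chr16:35966752-35983230, fell from 140 ± 32.6 to 56.1 ± 12.4 CPM (log2 difference -1.20, edgeR adjusted p = 0.0223). It overlaps Kpna1 and Parp9. The study describes its UFIs as keeping the strand, but the strand setting of the gene counting is not given in the sources used here, so the assignment of reads in the overlap is uncertain. For all 4 genes the other Slc17a7 nuclei were lower with a preindex too, where 2272 of 16209 genes (14%) were called. The libraries and preindexes are shared by both sets of nuclei, so this is not a separate observation of the primer.

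Gpc6, which lies at chr14:116925315-117976544 and overlaps the annotated gene Mir6239, was the gene that rose. It had 603, 457, 533 and 503 CPM without and 961, 955 and 885 with a preindex (log2 difference 0.88, SE 0.13, edgeR adjusted p = 0.0223). In other Slc17a7 nuclei of the same libraries Gpc6 was higher with a preindex as well (704 against 574 CPM, log2 difference 0.51, edgeR adjusted p = 0.00145). Its level differed between subclusters, with 2289 CPM in subcluster 2 and 1474 in subcluster 7 against 106 to 647 in the other 6. Outside subcluster 2 the log2 difference was 0.44 (edgeR adjusted p = 0.741), and the call was lost. Cd44 also passed the threshold no longer outside subcluster 2 (log2 difference -1.54, edgeR adjusted p = 0.0569).

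**Figure D5:**
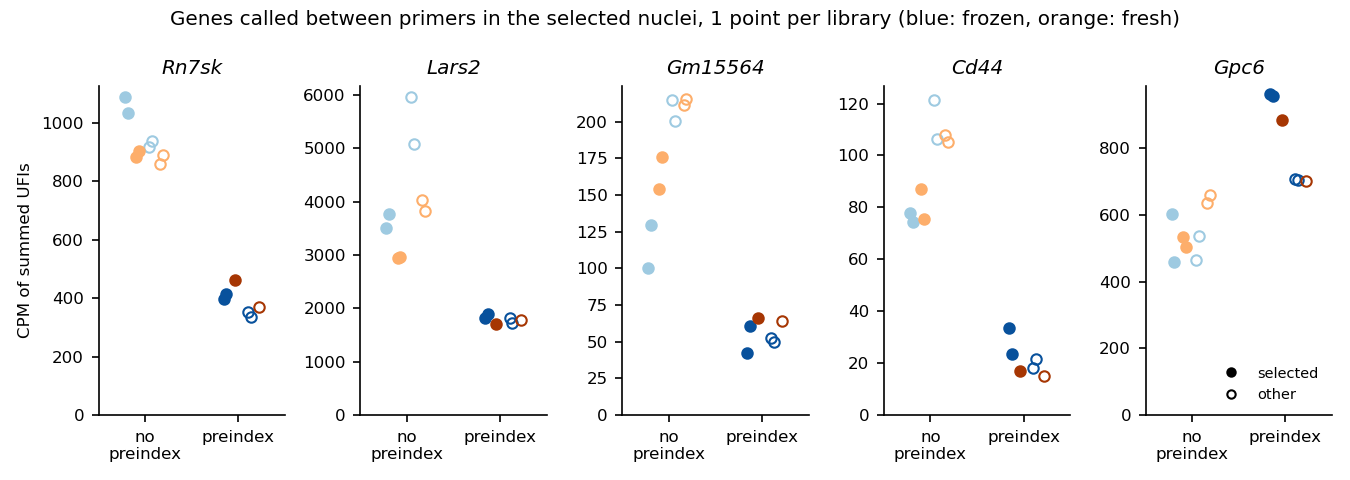
CPM of summed UFIs of the 5 genes called between primers in the selected nuclei, 1 point per library, filled for selected and open for other Slc17a7 nuclei; light and dark blue are frozen, light and dark orange fresh. Rn7sk, Lars2, Gm15564 and Cd44 were lower with a preindex in both sets of nuclei, and Gpc6 was higher.

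The number of calls between primers varied with single libraries. Without frozen replicate 2 made with a preindex no gene passed, without frozen replicate 2 made without one 25 did, without frozen replicate 1 of either primer 3 did, without fresh replicate 1 or 2 made without a preindex 9 did, and without the fresh library made with one 19 did. All 5 genes kept their direction with each library left out in turn. Their log2 differences lay between -1.33 and -1.08 for Rn7sk, -0.90 and -0.78 for Lars2, -1.92 and -1.35 for Cd44, -1.34 and -1.11 for Gm15564, and 0.79 and 0.98 for Gpc6. Of the list of cerebellar granule genes none of the 3 tested was called between primers (Fat2: log2 difference -4.31, SE 0.82, edgeR adjusted p = 0.0653). The list summed to 163, 53.5, 4.73 and 58.6 CPM without a preindex and to 1.72, 0.804 and 2.96 with one. In other Slc17a7 nuclei it was split by library in the same way, with 77.4 to 185 CPM without and 0.227 to 0.857 with a preindex. Such UFIs were seen in 41 selected nuclei, 7 of which had at least 5 per 10000. Their part in the comparison was not tested.

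Whether the primer acted differently on selected and other Slc17a7 nuclei was tested in a joint model with the library as a block. Of 12637 genes, 9 (0.0712%) had a different effect of the primer, and 831 had an unadjusted p under 0.05. For frozen against fresh the count was 0 (0%), with 494 at an unadjusted p under 0.05 and 0 called by DESeq2, and it reached 2 at most with 1 library left out. Runx2, a transcription factor gene at chr17:44495987-44814797 that overlaps Supt3, had 300 ± 50.2 CPM without and 175 ± 14.1 with a preindex in the selected nuclei, against 220 and 272 in other Slc17a7 nuclei. The difference of the effects was -1.11 on the log2 scale (SE 0.15, edgeR adjusted p = 0.00342).

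Etl4, a large gene that overlaps 10 annotated genes, and Scube1, which encodes a secreted and membrane-bound glycoprotein, gave the same picture. Etl4 had 1406 ± 143 CPM without and 966 ± 256 with a preindex in the selected nuclei, against 1342 and 1538 in the others (difference of effects -0.85, SE 0.14, edgeR adjusted p = 0.00892). Scube1 had 88.0 ± 14.4 and 59.0 ± 26.4 against 131 and 201 (difference -1.39, SE 0.23, adjusted p = 0.00952 by edgeR). All 3 genes were most abundant in subcluster 4, at 420 CPM for Runx2, 2632 for Etl4 and 211 for Scube1. Fras1, a gene of the extracellular matrix, differed in the same direction (-0.74, SE 0.14, edgeR adjusted p = 0.0445).

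Ank1, which encodes an ankyrin of the membrane skeleton, differed the other way. It had 61.1 ± 6.59 CPM without and 65.6 ± 13.6 with a preindex in the selected nuclei, while it stood at 111 and 57.2 in the others (difference of effects 1.05, SE 0.18, edgeR adjusted p = 0.0187). Nxn, a thioredoxin family gene, had 13.4 ± 8.38 and 15.9 ± 4.75 against 23.8 and 7.09 (difference 2.14, SE 0.40, edgeR adjusted p = 0.0385). The remaining 3 genes rested on few nuclei: Bnc2 had 46 of its 63 UFIs and Mobp 60 of its 96 in 1 nucleus, and Lef1 had 54 UFIs in 12 nuclei. These 3 were named after their values were seen. Runx2, Etl4, Scube1, Fras1, Ank1 and Nxn kept their direction with each library left out, but none of the 6 passed without the fresh library with a preindex, where edgeR adjusted p-values lay between 0.174 and 0.515. Without frozen replicate 1 made with a preindex, Runx2 alone of the 6 still passed. Fras1 lost its call in 5 and Ank1 and Nxn in 4 of the 7 omissions each. Leaving out 1 library at a time moved the count of 9 to between 1 (without the fresh library with a preindex) and 40 (without frozen replicate 2 made without a preindex).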

How the data were processed

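The deposited values are raw UFI counts per gene and nucleus. According to the study's methods, the authors trimmed with cutadapt, picked barcodes with UMI-tools by a cutoff set by hand, aligned with STAR in 2 passes, used only reads with a unique position, counted them over whole genes with featureCounts and collapsed UFIs with UMI-tools. The methods name GRCh38, and the submitters' processing notes list GRCh38, GRCm38, mm10 and Scanpy. Positions and gene spans are from GENCODE vM21 (GRCm38), matched by symbol.

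The members, gene lists and tests were chosen with earlier results of these data known. UFIs of selected nuclei were summed per library and tested with edgeR 4.0.16 (filterByExpr, TMM, glmQLFTest with storage and primer as terms, Benjamini-Hochberg adjustment over all genes, threshold 0.05). Library shares and medians were compared by exact permutation. Subclusters were made with scanpy 1.11.5 (log of UFIs per 10000, 2000 variable genes, 40 components, 10 neighbours, Leiden resolution 0.4, Harmony not used; the study's methods name no choice of variable genes). A subcluster took a name when 3 or more genes of its leading list were detected and raised, 1 or more of them among the 10 leading genes, the last being a condition added after values had been seen. Genes were named by rule: up to 10 per direction with an adjusted p under 0.05, at least 10 CPM and no overlap between groups, and, for selected against other Slc17a7 nuclei, the 20 largest and 10 smallest ratios with at least 20 CPM and 1 side in 7 of 7 libraries, genes of the selection rule left out. Genes of the fixed lists could also be named. Some genes that meet these rules are not reported here.

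The summed UFIs of a library, 270339 to 1352987, limit what single genes can show. In simulated data 200 genes, all with at least 10 CPM, were changed 4-fold (log2 of 2). For storage the test found 184 of them among 9313 genes, with 6.12% of 196 calls false. For the primer it found 192 among 9277 genes, with 9.43% of 212 false. This change is larger than that of any gene called between primers in the selected nuclei (the largest was Cd44, -1.69). The simulation therefore does not show what share of smaller changes, or of changes at lower levels, would be found. Alternatives were DESeq2 1.42.0, upper-quartile scaling, no filter, a replicate block, other thresholds of the selection, thinning, subsets of nuclei and leaving out each library. Deviations of same-numbered libraries correlated at 0.0164, 0.0120 and 0.000192. Counting error at few UFIs per gene pulls such values toward 0, so they cannot show whether replicate numbers pair libraries.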

Additional observations from a re-analysis of the deposited data

Results flagged for a closer look

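Of 120 groups of 4 libraries examined over 60 quantities, 10 (8.33%) held a library far from the other 3, where chance gives about 1 in 20. The groups share libraries and some quantities share genes, so nothing is read from the difference between these rates. Frozen replicate 1 without a preindex, with 21 selected nuclei, gave 7 of the 10. Its Rspo2 level was 669.53 CPM and its R-spondin and Wnt ligand list 773.103 CPM, both far above the other frozen libraries, with 84 of 181 Rspo2 UFIs in 1 nucleus. Its interneuron list (547.461 CPM) and its endothelial list (77.6802 CPM) stood apart among frozen libraries and among those without a preindex, and its Nxn level (25.8934 CPM) among those without a preindex. Fresh replicate 2 without a preindex had a layer 5 IT list of 154.529 CPM, fresh replicate 1 without a preindex a liver list of 0.945108 CPM, which is 1 UFI, and frozen replicate 2 without a preindex a heat shock list of 176.074 CPM. None of these was weighed. Leaving out each library in turn was run for the shares, depths and gene tests, as given above and below. The part of these single values in the comparisons was not tested otherwise.

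By the test of the difference itself, 9 genes responded differently to the primer in selected and other Slc17a7 nuclei. The differences of the log2 effects were 1.05146 for Ank1, 2.14312 for Nxn, 6.00855 for Bnc2, 3.90129 for Lef1 and 4.0169 for Mobp, and -0.850935 for Etl4, -0.744982 for Fras1, -1.10756 for Runx2 and -1.38918 for Scube1.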

How the results depend on the processing

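The difference in share between frozen and fresh turned to -0.00589 points with a minimum of 4 per 10000, -0.542 with at least 3 UFIs of Slc17a7 and -0.200 after thinning to 3000 UFIs, and lay between -0.0471 and 0.434 with 1 library left out. That between primers turned to -0.150, -0.902 and -0.583 under the first 3, and lay between 0.00973 and 0.372 with 1 library left out; the cause was not tested. Calls between frozen and fresh numbered 46 with no filter on low counts and 0 to 15 with 1 library left out (15 without the fresh library with a preindex). Calls between primers numbered 12 without storage in the model, 19 with DESeq2, 10 with upper-quartile scaling, 145 with no filter, 2 with a minimum of 9 per 10000, 14 in nuclei with under 3 kidney and liver UFIs, 3 outside subcluster 2, and 0 to 25 with 1 library left out. With the replicate block, although nothing showed that the numbers pair the libraries, 3 genes were called between primers and 0 between frozen and fresh. Genes whose effect differed between sets of nuclei numbered 0 to 2 for storage and 1 to 40 for the primer with 1 library left out. Leiden resolution 0.2 gave 5 subclusters, and a minimum of 9 per 10000 left 237 genes higher and 377 lower of 5867 in 7 of 7 libraries. The last 2 settings, the subsets outside subcluster 2 and the shares without kidney-rich nuclei were chosen after seeing the data. The other 61 values that answer a comparison kept their direction and side of the threshold or stayed within 1.5 times. Summed over selected nuclei, the shallowest library (frozen replicate 1 without a preindex) held 270339 UFIs.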

Other observations

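Kidney-rich nuclei, those with at least 10 kidney UFIs per 10000, numbered 263 and 209 in the frozen libraries with a preindex and 5 in the fresh one. They lay on 28, 26 and 3 barcode ends, none of which held a selected nucleus. In the frozen libraries all 263 and all 209 of them had a barcode end on neither the list of reverse transcription barcodes nor that of bead barcodes, and in the fresh library none had. Of the selected nuclei, 4 held 3 or more kidney and liver UFIs.

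The noncoding RNA Malat1 was lower in the selected than in other Slc17a7 nuclei in 7 of 7 libraries (4478 ± 336 against 5059 ± 175 CPM). The subclusters were made from counts that include the 4 selecting genes, so the shares of these genes by subcluster are a description. With the 4 genes left out of the clustering, 1 cluster held 54 nuclei, all of subcluster 4. It had Rspo2 in 92.6% and Ptpn14 in 1.85% of its nuclei.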
